A study of Bos taurus with 12 samples.

Results

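Granulosa cells and theca cells of bovine ovarian follicles were compared over follicles of all sizes, 6 arrays of each layer, with follicle size as a covariate. The genes described are those whose signal on all 6 arrays of one layer was above that on all 6 arrays of the other. Of 17478 probe sets tested, 880 met this rule with granulosa higher and 900 with theca higher. The probe sets that had exactly 1 gene symbol numbered 536 and 567, and stood for 474 and 513 genes.

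Granulosa cells are the epithelial layer that lines the follicle inside its basement membrane and surrounds the oocyte. The layer has no vessels of its own. It responds to follicle-stimulating hormone and turns androgen into oestradiol. The theca lies outside the basement membrane, contains vessels, fibroblasts and smooth muscle beside its steroid cells, and makes the androgen that granulosa cells use.

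Total RNA of untreated Bos taurus follicles was hybridised to Affymetrix bovine arrays, 1 pool of cells to an array. Granulosa cells and theca cells were each taken from small follicles of up to 5 mm, medium follicles of 5 to 10 mm and large follicles of over 10 mm, 2 arrays for each layer and size. The ovaries were those of young, cycling, nonpregnant heifers in the follicular stage. A pool held cells of 20 to 40 follicles per the extract protocol, whereas the design text gives 20 to 40 ovaries of 6 to 10 animals. The design text calls the replicates separate, but whether pools shared animals is not stated, so p-values measure the spread between pools. The labels describe no sorting of cell types within a layer, and less RNA per cell cannot be told apart from fewer cells of a type. The layer was taken from the sample title, with which the source name agreed, although the description field names theca for all 12 samples.

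Most of the arrays were alike in quality, and 2 stood apart. The 3' to 5' signal ratio of the GAPDH control transcript was 8.36 on the first array of small theca and 0.984 to 1.30 on the other 11. The first array of large granulosa had the highest median signal (48.7, against 33.6 to 39.1) and the highest actin 3' to 5' ratio (21.0). Spearman correlations of the arrays were 0.852 to 0.94 within granulosa, 0.857 to 0.948 within theca and 0.792 to 0.903 between the layers. The main axis of variation, with 38.5% of the variance, split the layers.

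In the comparison of all probe sets, granulosa was higher for 2314 (13.2%) and theca for 1862 (10.7%), at a Benjamini-Hochberg adjusted p under 0.05 from limma. The side with more calls depends on the scaling: after quantile normalization granulosa was higher for 2005 and theca for 2046. Probe sets with no overlap made up 5.03% of those tested with granulosa higher and 5.15% with theca higher. Such probe sets were chosen on this contrast, so their layer differences are given below as a description. Without the 2 arrays that stood apart, 799 of the 880 and 854 of the 900 passed the limma test, and since the rule used the remaining arrays too, nothing is read from these counts. Differences are granulosa minus theca in log2(signal + 16), ± the standard error of the limma model over 12 arrays, and are negative where theca was higher. The offset understates the folds of dim probe sets. Counts of called genes in the lists below are to be read beside the 13.2% and 10.7% of all probe sets. The match is not exact, since a list counts each gene once, by its brightest tested probe set. List counts of genes with no overlap are to be read beside 339 granulosa-high and 474 theca-high of 7953 tested genes.

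Under the deposited scaling, similar counts of probe sets went with unequal distances. By the brightest tested probe set of each gene, 339 genes were granulosa-high and 474 theca-high with no overlap. After quantile normalization 744 probe sets were granulosa-high and 1030 theca-high with no overlap. The gap, which is the distance in log2(signal + 16) between the lowest array of the higher layer and the highest array of the lower one, had a median of 0.17 among probe sets higher in granulosa and 0.34 among those higher in theca. A gap of at least 1 was found for 20 granulosa-high and 169 theca-high probe sets. At least 8-fold differences were found for 6 and 93. In the lower layer all 6 signals lay under the filter signal of 22.5 for 85 (9.66%) of the granulosa-high and 138 (15.3%) of the theca-high probe sets.

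**Figure D1:**
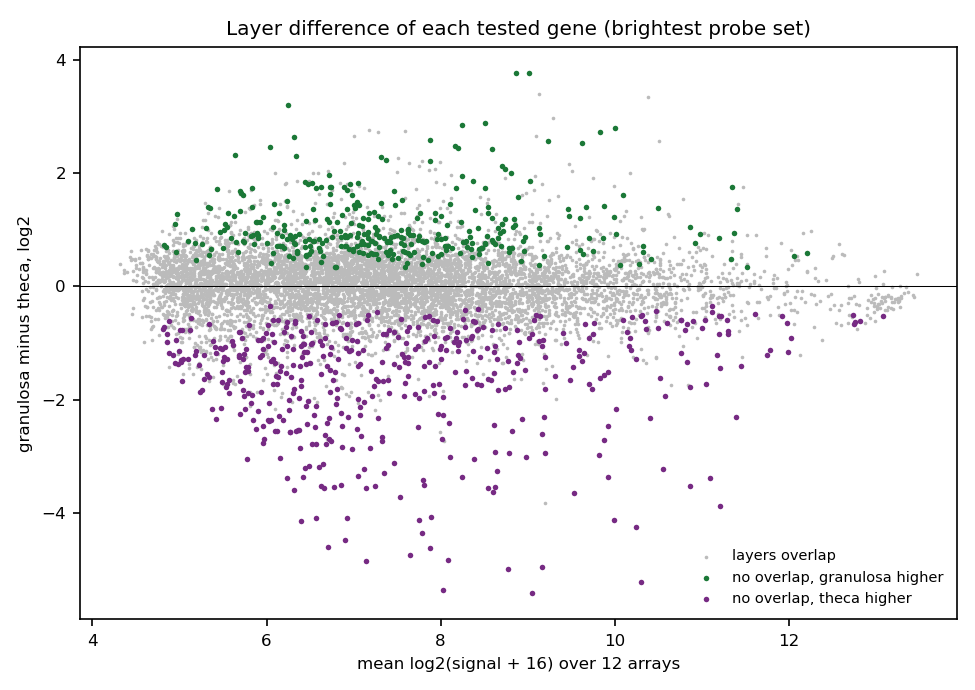
Granulosa minus theca in log2 against the mean log2(signal + 16) over 12 arrays, 1 point for each tested gene (its brightest probe set), coloured where the layers did not overlap. Points for genes higher in theca reach beyond -5, while those for genes higher in granulosa stay under 4.

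**Figure D2:**
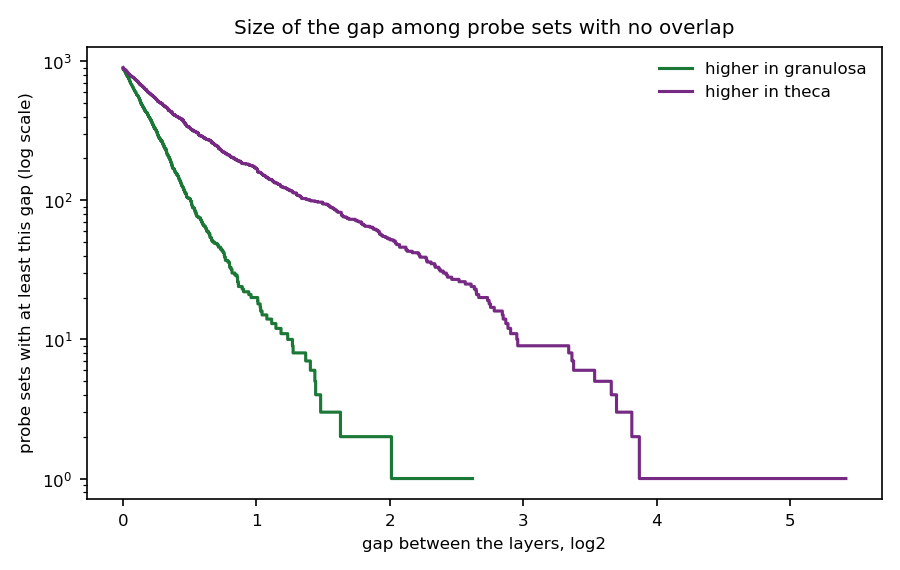
Number of probe sets with at least a given gap between the layers, for the 880 higher in granulosa and the 900 higher in theca; the number axis is logarithmic. The curves start at similar counts and part as the gap grows, and 53 theca-high against 2 granulosa-high probe sets have a gap of at least 2.

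The limit of the rule ran through genes with small differences. ALYREF, an mRNA export adaptor, was just inside it, with a lowest granulosa signal of 1292.1 against a highest theca signal of 1291.1. SPATA2 and DDX41 were just outside on the granulosa side, each with equal signals at the boundary (38.6 and 142.6). On the theca side CASK, a scaffold kinase of cell junctions, was just inside, with 179.4 against 179.1. ACCS and PRKAR1B were just outside at 107.0 and 7.7. Single arrays set many of these boundaries. The second array of large theca was the lowest theca array for 297 (33.0%) of the theca-high probe sets, and the first array of large granulosa was the highest granulosa array for 275 (30.6%). Among granulosa-high probe sets the first array of medium theca was the highest theca array for 287 (32.6%).

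Markers of the labelled cell types followed the titles. Of 17 tested granulosa markers 12 were higher in granulosa and 0 in theca, with a median difference of 1.56. Of 10 theca steroid cell markers 7 were higher in theca and 0 in granulosa, with a median of -2.50. The median over all tested probe sets was 0.102. The summed signal of the theca steroid markers was 5631 to 8740 on granulosa arrays and 22778 to 35250 on theca arrays. That of the granulosa markers was 28836 to 43865 on granulosa arrays but reached 32343 on the second array of large theca, against 11310 to 22922 on the other theca arrays.

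Among steroid enzymes, the enzyme that makes androgen separated the layers and the steps before it did not. CYP17A1, which makes androgen, had a signal of 26.5 to 228 (median 57.6) in granulosa and 1786 to 5782 (median 3400.4) in theca. Every theca array was far above every granulosa array, a 42.8-fold difference (-5.42 ± 0.33). INSL3, the insulin-like peptide hormone of theca cells, had signals of 316 to 995 (median 584) and 7811 to 12717 (median 8584), a difference of -3.89 ± 0.26. FDX1, the ferredoxin that passes electrons to mitochondrial steroid P450 enzymes, did not overlap either, at 598 to 1064 (median 871) in granulosa and 2143 to 3265 (median 2442) in theca. NPC1, which moves cholesterol out of lysosomes, was the steroid and cholesterol gene with no overlap and granulosa higher, at 339 to 565 (median 433) against 148 to 226 (median 193). In the list of 29 tested steroid and cholesterol genes 4 were higher in granulosa and 6 in theca, beside 13.2% and 10.7% of all probe sets, with a median of -0.18.

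The shared first steps of steroid synthesis did not pass the test. STAR, which brings cholesterol into mitochondria, differed by -0.18 ± 0.40 (adjusted p = 0.768, limma), CYP11A1, which cleaves its side chain, by -0.13 ± 0.21 (adjusted p = 0.7) and HSD3B1, which makes progesterone, by 0.41 ± 0.23 (adjusted p = 0.218). All of these overlapped widely, with STAR at 811 to 2782 (median 1308) in granulosa and 729.8 to 3599 (median 1536) in theca. The signs of STAR and CYP11A1 are not settled: without the first array of large granulosa the CYP11A1 difference was 0.02, and without the first array of small theca or the first array of large theca that of STAR was 0.05 or 0.07.

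Aromatase, the enzyme that defines oestradiol synthesis in granulosa cells, overlapped between the layers. CYP19A1 signals were 113.0 and 126.4 in small, 3114 and 1819.7 in medium and 3134 and 1820.5 in large granulosa. In theca they were 21.9 and 52.8 in small, 912 and 184 in medium and 1633 and 4279 in large follicles, so the highest CYP19A1 signal of all lay on a theca array. The layer difference of 1.25 ± 0.44 did not pass (adjusted p = 0.0504, limma; exact two-sided permutation within sizes p = 0.0648, against a smallest possible 0.00926). The difference was 1.59 ± 0.39 without the second array of large theca and 1.32 ± 0.48 without the first array of large granulosa. With a mean for each of the 6 groups it passed (adjusted p = 0.0229, limma). The dimmer CYP19A1 probe set differed by 0.59 ± 0.34 and did not pass (adjusted p = 0.225, limma).

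Other genes of the hormone axis overlapped as well. FSHR, the receptor of follicle-stimulating hormone, had signals of 53.0 to 332 (median 151) in granulosa and 5.0 to 63.3 (median 26.6) in theca and was 3.64-fold higher in granulosa (adjusted p = 0.0017, limma). AMH, the anti-Müllerian hormone, was higher in granulosa by 1.56 ± 0.32 (adjusted p = 0.00265) and HSD17B1, which reduces oestrone to oestradiol, by 1.91 ± 0.41 (adjusted p = 0.00367). LHCGR, the luteinising hormone receptor, was higher in theca by 2.18-fold, with 3.1 to 41.4 (median 15.8) in granulosa and 27.5 to 159 (median 44.8) in theca (adjusted p = 0.000801). INHBA, a subunit of inhibin and activin, was higher in granulosa by 1.55 ± 0.40 (adjusted p = 0.0105) and FST, which binds activin, by 0.98 ± 0.30 (adjusted p = 0.025, a call lost without any 1 of 4 of the arrays). INHA, the inhibin alpha subunit, differed by 0.56 ± 0.23 and did not pass in limma (adjusted p = 0.0857), although its exact two-sided permutation p within sizes was 0.037, unadjusted for the 13 genes so tested. The second array of large theca had the highest theca signal for 7 of the 17 tested granulosa markers: INHA, INHBA (5756), FST (6868), FOXL2, CYP19A1, GJA1 and NR5A2 (291). The highest theca signal lay on the small theca arrays for 8 others, among them KRT18 and FSHR, and on the first array of medium theca for HSD17B1 and ESR2. The source of those signals was not tested.

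**Figure D3:**
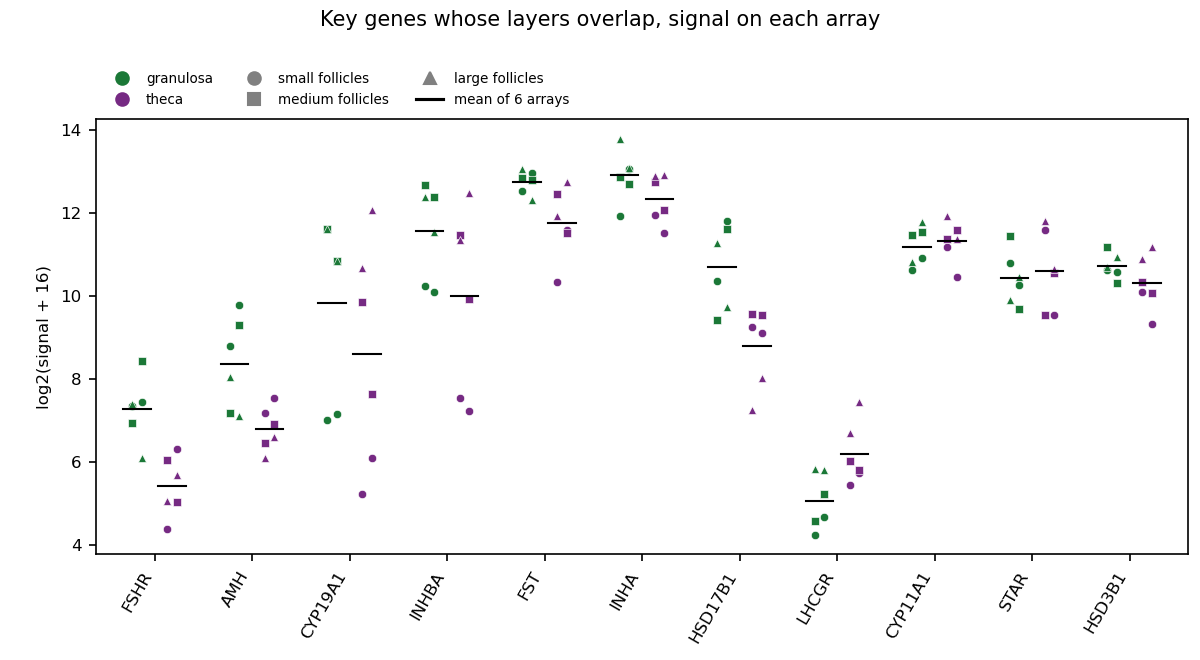
log2(signal + 16) of 11 genes of the hormone and steroid axis whose layers overlap, 1 point for each array (green granulosa, purple theca; shape gives follicle size) with the mean of 6 arrays as a bar. CYP19A1 and INHBA spread widely within a layer by follicle size, and their highest theca point, a large follicle array, lies among the granulosa points.

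Some epithelial cytoskeleton and adhesion genes were granulosa-high with no overlap. KRT18, a keratin of simple epithelia, had signals of 801 to 5964 (median 1371) in granulosa and 56.7 to 293 (median 110.2) in theca. All granulosa arrays lay above all theca arrays, 13.7-fold on average (3.77 ± 0.24). Its partner KRT8 gave 49.1 to 108 (median 51.0) and 0.6 to 15.9 (median 9.6), a difference of 1.72 ± 0.23. CDH1, epithelial cadherin, had 76.8 to 200 (median 145) in granulosa and 2.2 to 19.9 (median 13.4) in theca (2.47 ± 0.24), and CDH2, neural cadherin, 877 to 2187 (median 1504) and 66.3 to 502 (median 269), a difference of 2.57 ± 0.37. Neither cadherin overlapped on these probe sets, but the dimmer CDH1 probe set, which differed by 1.3, did overlap. CLDN1, a tight junction claudin, was higher in granulosa by 1.73 ± 0.33, with a gap of 0.16. Some other epithelial genes did not pass in limma: EPCAM differed by 0.06 (adjusted p = 0.893), KRT19 by 0.29 (0.619), KRT7 by -0.41 (0.317), KRT5 by -0.20 (0.503) and MAL2 by 0.33 (0.293). CGN (1.23, adjusted p = 0.00149), PKP2 (0.72, 0.0391) and EZR (0.66, 0.0202) passed in limma with granulosa higher and overlapped. Of 18 tested genes of intermediate filaments and epithelial cytoskeleton 4 were higher in granulosa and 2 in theca, with a median of 0.12.

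Other members of the same families took the opposite direction. CDH5, the cadherin of endothelial cells, was higher in theca, differing by -2.03 ± 0.30, and CDH11, a cadherin of mesenchymal cells, by -1.81 ± 0.21. The dimmer probe sets of CDH5 and CDH11 differed by -0.99 and -1.22 and overlapped. CDH3, another cadherin, was theca-high with overlap (-1.37 ± 0.27, adjusted p = 0.00175, limma). CLDN11 had signals of 22.3 to 100 (median 52.6) in granulosa and 229 to 2024 (median 877) in theca, a difference of -3.43 ± 0.39. Its other probe set overlapped. KRT10, a keratin best known from skin, was also higher in theca (-1.23 ± 0.21). Of 23 tested junction genes 5 were higher in each direction, beside 13.2% and 10.7% of all probe sets, with a median of -0.04.

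**Figure D4:**
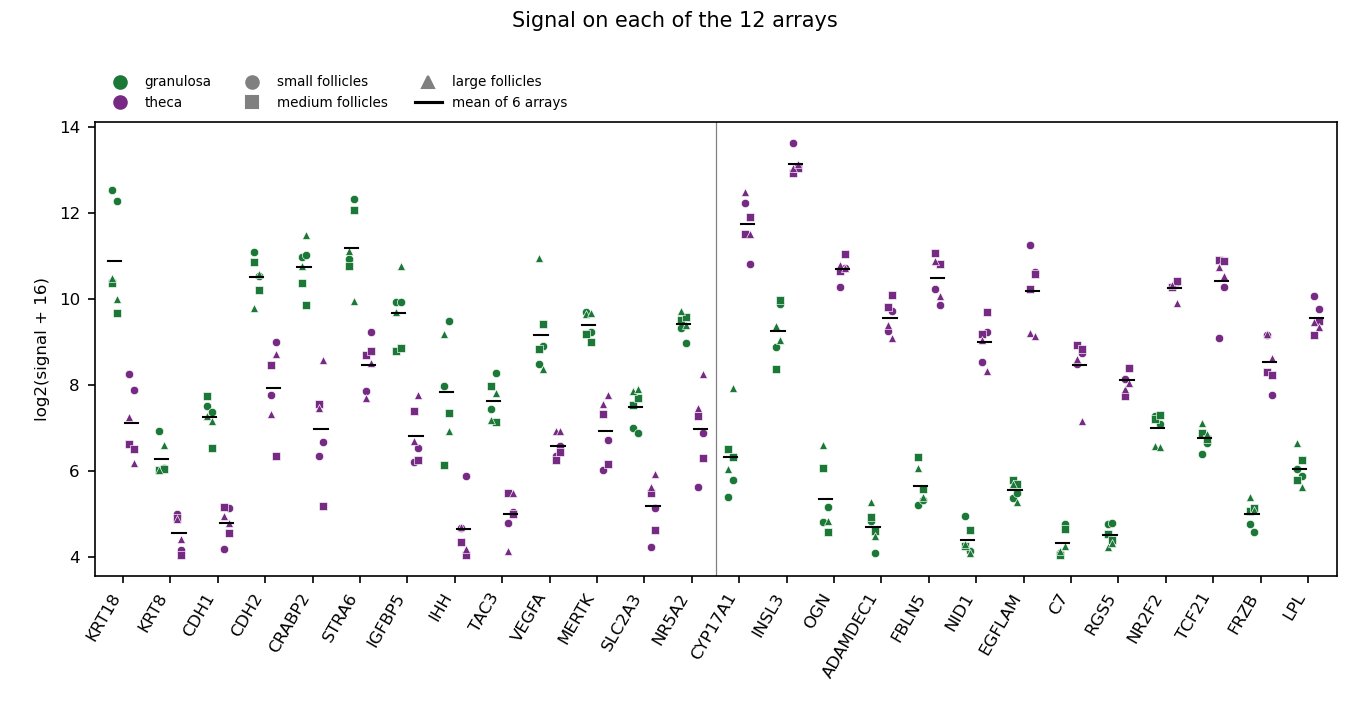
log2(signal + 16) of 26 genes with no overlap between the layers, 1 point for each array (green granulosa, purple theca; shape gives follicle size) with the mean of 6 arrays as a bar. The 13 genes on the left are higher on every granulosa array and the 13 on the right on every theca array, and the distances are wider on the right.

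Transcription factors marked both layers. NR5A2, a nuclear receptor that drives steroid genes in granulosa cells, had signals of 488 to 831 (median 693) in granulosa and 33.4 to 291 (median 121) in theca (2.45 ± 0.28). ESR2, oestrogen receptor beta, was higher in granulosa by 1.13 ± 0.19. NR2F2, an orphan nuclear receptor of mesenchymal cells, had 78.8 to 142 (median 126) in granulosa and 951 to 1365 (median 1256) in theca. Its arrays were tightly grouped within each layer, and both of its probe sets separated the layers (-3.27 ± 0.17). NR2F1 was higher in theca, differing by -1.74 ± 0.23, and NR0B1, a repressor of steroid genes, by -1.04 ± 0.20. NR3C1, the glucocorticoid receptor, was higher in theca, differing by -1.02 ± 0.19 on its brighter probe set, while the dimmer one differed by 0.40 in the other direction and overlapped. PPARG, a receptor for fatty acid derivatives, was higher in granulosa by 2.27 ± 0.42 (adjusted p = 0.00129, limma) but overlapped. Of 18 tested nuclear receptors 3 were higher in granulosa and 4 in theca, beside 13.2% and 10.7% of all probe sets, with a median of -0.02.

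Among developmental transcription factors, 5 of 25 tested were higher in granulosa and 12 in theca, with a median of -0.36. TCF21, a factor of mesenchymal and gonadal stroma, had signals of 68.4 to 124 (median 96.4) in granulosa and 532 to 1914 (median 1589) in theca (-3.63 ± 0.22). OSR2 was higher in theca, differing by -2.46 ± 0.24 and MEIS2, a homeobox factor, by -1.38 ± 0.16. SOX18 and ERG, factors of endothelial cells, were higher in theca, differing by -2.36 ± 0.28 and -1.52 ± 0.27. SOX4 went the other way, at 160.1 to 1235 (median 306) in granulosa and 43.2 to 85.2 (median 64.5) in theca. Its difference was 2.24 ± 0.31 (3.0, 2.45 and 1.28 in small, medium and large follicles). FOXP1 was higher in granulosa by 1.14 ± 0.31 (adjusted p = 0.0142, limma), with overlap. KLF13 and KLF5 were granulosa-high (1.21 ± 0.19 and 0.61 ± 0.16) and KLF4 theca-high (-1.36 ± 0.26). Of 3 tested HOX genes 0 were higher in granulosa and 1 in theca.

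Retinoid genes were found on both sides. CRABP2, which carries retinoic acid to its receptors, had signals of 917 to 2859 (median 1877) in granulosa and 20.5 to 369.5 (median 124.6) in theca, a 13.7-fold difference (3.77 ± 0.36). STRA6, the receptor that takes up retinol from its binding protein, was higher in granulosa at 989 to 5108 (median 2074) against 192 to 587 (median 374). ALDH1A1, which makes retinoic acid, was higher in theca, with 29.4 to 498 (median 63.6) in granulosa and 1594 to 6174 (median 2945) in theca (-4.96 ± 0.31). The highest granulosa signal of ALDH1A1 lay on the first array of large granulosa. RARRES1, a gene induced by retinoids, was theca-high with overlap (-3.82 ± 0.39, adjusted p = 6.62e-06, limma). CRABP1, the other retinoic acid carrier, differed by -0.86 (adjusted p = 0.0631), and RDH10 and DHRS9, dehydrogenases of retinoid synthesis, by -0.60 (0.065) and 0.46 (0.262). Of 13 tested retinoid genes 2 were higher in each direction, near the 13.2% and 10.7% of all probe sets.

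Growth factor ligands and receptors with no overlap were found in both layers. VEGFA, the main growth factor of vessels, had signals of 319 to 1971 (median 456) in granulosa and 61.1 to 108 (median 76.1) in theca. Its granulosa arrays all lay above its theca arrays (2.58 ± 0.32). TEK, the endothelial receptor of angiopoietins, was higher in theca (-2.01 ± 0.27). MERTK, a receptor used to engulf dying cells, was higher in granulosa, with 499.8 to 824 (median 689) against 49.8 to 203 (median 118), a difference of 2.48 ± 0.24. NTRK2, a neurotrophin receptor, was higher in theca, differing by -1.86 ± 0.27. INSR, the insulin receptor, overlapped and was higher in granulosa by 1.74 ± 0.25 (adjusted p = 0.000173, limma). Of 49 tested genes of this list 9 were higher in granulosa and 13 in theca, with a median of -0.06.

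The insulin-like growth factor axis was divided between the layers. IGF2, a growth factor, had signals of 169 to 848 (median 237) in granulosa and 1339 to 4707 (median 2804) in theca, with differences of -3.82, -4.01 and -1.10 in small, medium and large follicles. Of its 3 probe sets 2 separated the layers and 1 had the opposite sign. IGFBP5, a binding protein of these factors, was higher in granulosa at 431 to 1736 (median 892) against 58.4 to 202 (median 82.7), a difference of 2.86 ± 0.30. IGFBP6, IGFBP3 and IGFBP4 were higher in theca, differing by -3.65 ± 0.26, -3.05 ± 0.36 and -2.95 ± 0.32. For IGFBP6 the signals were 139 to 318 (median 176) and 1541 to 3726 (median 2817). The 4 of 6 tested binding proteins with no overlap were thus 1 in granulosa and 3 in theca. Of all 7953 tested genes, 339 and 474 had no overlap in these directions.

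Of 63 ligand and receptor pairs examined, 28 had both genes tested, and EFNA1 with EPHA2 was the pair in which both genes had no overlap. EFNA1, a membrane-bound ephrin, was higher in theca, with 34.4 to 60.1 (median 47.3) in granulosa against 73.9 to 363 (median 164) in theca. EPHA2, its receptor, was higher in granulosa, with 70.8 to 117 (median 85.4) against 34.7 to 61.4 (median 46.8), a difference of 0.75 ± 0.18. In other guidance genes, NTN4, a secreted netrin, was higher in granulosa by 0.90 ± 0.25, and SLIT3 and the receptor ROBO1 were higher in theca, differing by -1.61 ± 0.20 and -1.97 ± 0.26. Of 21 tested guidance genes 5 were higher in each direction, beside 13.2% and 10.7% of all probe sets.

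IHH, a hedgehog ligand of granulosa cells, had signals of 54.3 to 705 (median 191) in granulosa and 0.7 to 43.3 (median 7.2) in theca. The layers were 0.25 apart at the nearest arrays, and the average difference was 3.20 ± 0.39. Its receptor PTCH1 and the target GLI1 were not tested. Of 5 tested hedgehog genes 2 were higher in granulosa and 0 in theca. Some secreted modulators of WNT signalling were higher in theca. FRZB, a secreted inhibitor, had 8.0 to 26.1 (median 18) in granulosa and 201 to 572 (median 343) in theca (-3.54 ± 0.23), and RSPO3, which strengthens WNT signals, differed by -1.94 ± 0.27. DKK3 and the receptor FZD1 were theca-high, differing by -1.82 ± 0.29 and -1.74 ± 0.22. TCF7, a nuclear effector of the pathway, was granulosa-high by 1.49 ± 0.21, and both of its probe sets separated the layers. SFRP1, an inhibitor of the FRZB family, passed with overlap (-0.88 ± 0.22, adjusted p = 0.00863, limma). Other modulators did not pass: SFRP2 differed by 1.80 (adjusted p = 0.0871), SFRP4 by -0.72 (0.0626), RSPO1 by -0.34 (0.229) and the R-spondin receptor LGR4 by -0.22 (0.49). Of 16 tested WNT genes 1 was higher in granulosa and 5 in theca, with a median of -0.41. Of 7 tested Notch genes 0 were higher in granulosa and 1 in theca.

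In the TGF-beta and BMP list 8 of 28 tested genes were higher in each direction. The 5 with no overlap were all higher in theca, beside 339 granulosa-high and 474 theca-high of all 7953 tested genes. ID1, a transcriptional target of BMP signals, had 148 to 343 (median 206) in granulosa and 972 to 2060.3 (median 1415) in theca (-2.61 ± 0.24). ID2 and ID3 of the same family did not pass in limma, differing by 0.32 (adjusted p = 0.357) and -0.38 (0.154). The ligands TGFB2 and TGFB3 were theca-high, differing by -1.32 ± 0.26 and -1.29 ± 0.21, and the latent TGF-beta binding proteins LTBP1 and LTBP2 by -1.13 ± 0.25 and -1.63 ± 0.24. LTBP2 signals were low, at 0.9 to 11.4 (median 7.4) and 14.7 to 112 (median 48.4).

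Markers of vessels and contractile cells were mostly theca-high. Of 14 tested endothelial markers 11 were higher in theca and 0 in granulosa (median -1.78), and of 12 smooth muscle and pericyte markers 7 and 0 (median -1.39). RGS5, a pericyte regulator of G protein signals, had signals of 2.9 to 11.9 (median 6.2) in granulosa and 201 to 322 (median 259) in theca, with the difference even over sizes (-3.49, -3.61 and -3.70 in small, medium and large follicles). ACTA2, smooth muscle actin, had 135 to 2339 (median 538) and 4244 to 8734 (median 6758), a gap of 0.86. MYLK, the kinase of myosin light chain, differed by -3.37 ± 0.24 and EMCN, an endothelial sialomucin, by -2.86 ± 0.37. The summed endothelial signal was 200 to 962 on granulosa and 794 to 2547 on theca arrays, and the first array of large granulosa held the granulosa maximum.

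Several receptors of vasoactive signals were theca-high, and others did not pass. CALCRL, which forms receptors for adrenomedullin and calcitonin gene-related peptide, had 4.3 to 69.3 (median 15.6) in granulosa and 239.9 to 520.1 (median 426) in theca (-3.51 ± 0.33). Its partner RAMP1 was theca-high, differing by -1.16 ± 0.28. AGTR1, an angiotensin II receptor, had 2.9 to 23.5 (median 13.5) and 111 to 193 (median 155), a difference of -2.55 ± 0.21, and EDNRA, an endothelin receptor, was theca-high, differing by -2.28 ± 0.21. GUCY1B1, a subunit of the nitric oxide receptor, differed by -1.06 ± 0.20. APLNR, the apelin receptor, differed by -0.40 (adjusted p = 0.418, limma), NPR2, a natriuretic peptide receptor, by 0.38 (0.266) and OXTR, the oxytocin receptor, by 0.38 (0.227). In the list of cAMP, cGMP and G protein genes 2 of 27 tested were higher in granulosa and 11 in theca, with a median of -0.21. GNG2, a G protein subunit, was an exception that overlapped, higher in granulosa by 1.27 ± 0.38 (adjusted p = 0.0241, limma), a call lost without any 1 of 6 of the arrays.

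Fibroblast and matrix markers were mostly theca-high. Of 16 fibroblast and stroma markers 13 were higher in theca and 1 in granulosa, with a median of -2.26. OGN, a small leucine-rich proteoglycan, had signals of 8.2 to 82.4 (median 16.4) in granulosa and 1228 to 2108 (median 1682) in theca, 41-fold apart. The layers were 3.66 apart at the nearest arrays. FBLN5, an elastic fibre protein, had 21.2 to 64.9 (median 29.4) and 922 to 2129.8 (median 1501), a difference of -4.84 ± 0.21, and DPT, dermatopontin, differed by -4.74 ± 0.37. COL1A1, the main fibrillar collagen chain, had 69.9 to 407 (median 269.9) in granulosa and 3032 to 4976 (median 4579.5) in theca on the brighter of its 2 probe sets, both of which separated the layers. The exception among these markers was POSTN, periostin, which was higher in granulosa at 57.2 to 673 (median 197) against 8.5 to 138 (median 52.6) and overlapped, with an adjusted p of 0.00814 from limma.

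Proteoglycan and hyaluronan genes were not all theca-high: 4 of 23 tested were higher in granulosa and 8 in theca. DCN, decorin, had 216 to 789.6 (median 506) and 3376 to 6044 (median 4648), and SDC2, a cell surface syndecan, 86.0 to 241 (median 194) and 1231 to 1756 (median 1374), with no overlap of either gene. VCAN, the hyaluronan-binding proteoglycan versican, was higher in granulosa by 1.03 ± 0.32 (adjusted p = 0.0276, limma), SPOCK2 by 1.4 ± 0.41 (adjusted p = 0.0228) and the hyaluronidase HYAL2 by 1.24 ± 0.40 (adjusted p = 0.034). Each of the 3 overlapped, and each call was lost without some single arrays (7 of 12 for VCAN and HYAL2, 3 of 12 for SPOCK2).

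Basement membrane components were theca-high where they separated. NID1, which links laminin to collagen IV, had signals of 1.1 to 15.2 (median 3.4) in granulosa and 308 to 820.1 (median 542) in theca (-4.61 ± 0.23). EGFLAM, an extracellular protein with laminin G domains, had 23.2 to 39.6 (median 32.6) and 548 to 2446 (median 1366), with differences of -5.52, -4.67 and -3.68 in small, medium and large follicles. COL15A1, LAMA4 and LAMB1 differed by -4.13 ± 0.35, -2.37 ± 0.27 and -1.51 ± 0.28. Of 14 tested genes of this list 0 were higher in granulosa and 7 in theca, with a median of -0.63. Of 14 tested integrins 2 were higher in granulosa and 3 in theca. ITGAV was granulosa-high by 2.57 ± 0.53 (adjusted p = 0.00283, limma) with a narrow overlap, and ITGB3, which pairs with it, theca-high, differing by -1.65 ± 0.22 on the brighter of 2 probe sets. The other ITGB3 probe set differed by 0.32.

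Complement genes and protease inhibitors with no overlap were theca-high as well. C7, a component of the membrane attack complex, had 0.5 to 11.3 (median 2.4) in granulosa and 128 to 476 (median 394) in theca (-4.14 ± 0.25). C4A and C1S of the classical pathway differed by -3.56 ± 0.25 and -2.49 ± 0.25, and the inhibitors SERPING1, A2M and TFPI2 by -2.31 ± 0.31, -3.55 ± 0.27 and -2.85 ± 0.28. In contrast C3, the central component, was higher in granulosa by 1.78 ± 0.38 (adjusted p = 0.00376, limma). Its granulosa signals were 65.9 to 940.0 (median 176), with the highest on the first array of large granulosa, and overlapped theca at 40.5 to 109 (median 51.9). THBS2 and PLAT, an inhibitor of vessel growth and a plasminogen activator, were granulosa-high with overlap, by 1.07 ± 0.28 and 1.22 ± 0.42 (adjusted p = 0.0116 and 0.0449). The PLAT call was lost without any 1 of 8 of the arrays. Of 30 tested genes 5 were higher in granulosa and 10 in theca, with a median of -0.30.

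Markers of blood cells did not separate the layers, yet they moved within granulosa. The summed macrophage and monocyte signal was 15238 on the first and 6067 on the second array of large granulosa, 582 to 1474 on the other granulosa arrays and 1142 to 3578 on theca arrays. The red cell sum was 714 on the first array of large granulosa and 32 to 104 on the other 11. Of 12 tested macrophage markers 2 were higher in granulosa and 0 in theca, of 10 T, NK and B cell markers 0 in either direction, and of 4 red cell markers 0. The part of these cells in the genes described here was not tested.

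Nerve, oocyte and surface epithelium lists held few genes. S100B, a calcium-binding protein, was theca-high, differing by -1.5 ± 0.23, and UCHL1, a ubiquitin hydrolase abundant in neurons, granulosa-high at 3124 to 6192 (median 4872) against 924 to 2176 (median 1220.3). They were the called members among 7 tested nerve markers. Of 5 tested oocyte markers 2 were higher in each direction. OOEP, an oocyte protein by name, was theca-high at 3.9 to 29.7 (median 13.8) in granulosa and 37.6 to 127 (median 75.3) in theca. Of 4 tested surface epithelium markers 1 was higher in granulosa and 0 in theca.

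Of 43 tested energy genes 18 were higher in granulosa and 4 in theca, with a median of 0.49. The glucose transporters SLC2A3 and SLC2A1 had 102 to 226 (median 181) in granulosa against 3.0 to 45.3 (median 24.4) in theca and 439.9 to 1751 (median 851) against 82.3 to 372 (median 193). Both were above theca on every granulosa array (2.30 ± 0.21 and 2.07 ± 0.34). Of the glycolysis enzymes, GPI and PGK1 were granulosa-high by 1.04 ± 0.19 and 0.95 ± 0.17, and the lactate exporter SLC16A3 by 1.75 ± 0.26. LPL, which releases fatty acids from lipoproteins, had 33.5 to 85.2 (median 47.0) in granulosa and 564 to 1059 (median 700.4) in theca (-3.51 ± 0.21). PFKM, a phosphofructokinase form of muscle, and GAMT, of creatine synthesis, were theca-high, differing by -1.05 ± 0.20 and -1.14 ± 0.21. PDK4, a brake on glucose oxidation, was theca-high with overlap (-1.85 ± 0.40, adjusted p = 0.0035, limma).

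LDHA, lactate dehydrogenase A, gave an unsettled direction. Its brightest probe set had 1419.8 to 3858 (median 2408) in granulosa and 548 to 1177 (median 968) in theca (1.39 ± 0.21). The 2 dimmer probe sets given the same symbol differed by -0.97 and -1.03, and the first of these also did not overlap. Which of them reads the gene was not tested.

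Redox genes differed by enzyme. TXNRD1 and TXN of the thioredoxin system were granulosa-high by 0.74 ± 0.19 and 0.49 ± 0.17, although the TXN call was lost in every fit without 1 array. GSTM3, a glutathione transferase, was theca-high at 623 to 1950.4 (median 1208) against 4372 to 8785 (median 5932). GSR, glutathione reductase, did not overlap but did not pass the test (0.35 ± 0.16, adjusted p = 0.125, limma). Of 29 tested genes 10 were higher in granulosa and 6 in theca.

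Of 29 tested cell cycle genes 14 were higher in granulosa, 1 was higher in theca and 14 did not pass, with a median of 0.62. CCND2, the D cyclin that granulosa cells use, had 951 to 2939.7 (median 1925) in granulosa and 421 to 885 (median 643) in theca (1.61 ± 0.22). AURKA, a mitotic kinase, was 2.02-fold higher with no overlap on either of its probe sets, and CCNA2 and CCNE1 differed by 0.83 ± 0.19 and 0.74 ± 0.19. CCND3 was the exception, theca-high, differing by -0.95 ± 0.28 with overlap (adjusted p = 0.0238, limma), and lost its call without any 1 of 5 of the arrays. Outside this list CCNF was granulosa-high (1.30 ± 0.23) and CCNG1 theca-high, at 691 to 1861 (median 1143) against 3196 to 4797 (median 3736).

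Of 25 tested early response genes 10 were higher in granulosa and 1 in theca, with a median of 0.50. JUN, a subunit of AP-1, had 1267 to 2042 (median 1491) and 292 to 816 (median 563), a difference of 1.42 ± 0.21, and 4 of its 5 probe sets separated the layers. ATF3, ZFP36, which destabilises mRNAs, and SGK1, a kinase induced by hormones, were granulosa-high by 1.85 ± 0.22, 1.87 ± 0.24 and 2.53 ± 0.42. EGR1 passed with overlap (0.85 ± 0.23, adjusted p = 0.0141, limma).

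Small GTPases, potassium channels and cytokine signal inhibitors were picked for description because they had members with no overlap in both directions. RAB27B, a small GTPase of secretory vesicles, was granulosa-high by 1.34 ± 0.22 and RAB33B theca-high, differing by -1.41 ± 0.24. In all 36 tested RAB genes 5 had no overlap with granulosa higher and 2 with theca higher. Of all 7953 tested genes, 339 and 474 had no overlap in these directions. Among potassium channels KCNJ2 was granulosa-high (1.39 ± 0.25) while KCNJ8, KCNF1 and KCNK17 were theca-high (-1.53 ± 0.25, -1.41 ± 0.22 and -1.30 ± 0.20). Of the cytokine signal inhibitors SOCS3 was granulosa-high (0.78 ± 0.19) and SOCS2 theca-high (-1.52 ± 0.27). AQP1, a water channel of vessels, was theca-high at 11.8 to 59.0 (median 14.4) against 106 to 412 (median 239). Of 18 tested amino acid and ion transporters 3 were higher in each direction, beside 13.2% and 10.7% of all probe sets. Those with no overlap were 0 in granulosa and 3 in theca, beside 339 and 474 of all 7953 tested genes.

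Some of the widest gaps belonged to genes outside these groups. TAC3, the precursor of neurokinin B, had 124.6 to 297 (median 184) in granulosa and 1.6 to 29.4 (median 16.6) in theca, the widest gap of any named granulosa-high gene (1.63). PCSK1, a protease that matures prohormones, was granulosa-high by 1.74 ± 0.22, HMGA1, a chromatin protein, by 1.73 ± 0.21 and PIM2, a survival kinase, by 1.75 ± 0.19. FAM78A and ITPK1, an inositol phosphate kinase, differed by 2.21 ± 0.26 and 2.29 ± 0.29. On the theca side ADAMDEC1, a metalloprotease-like protein, had 1.1 to 23.0 (median 10.6) and 533 to 1077 (median 747), with a gap of 3.81, the widest of any named theca-high gene. SPARCL1, a matrix glycoprotein, differed by -5.0 ± 0.29, CXCL14, a chemokine, by -4.49 ± 0.30, and APOD, a lipid carrier, by -4.26 ± 0.27. MGP, an inhibitor of calcification, differed by -5.23 ± 0.47 on its brightest probe set, while another of its 3 probe sets differed by 0.22.

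Probe sets without exactly 1 gene symbol, which have none or several, had wider gaps still at the extreme. They made up 344 of the 880 granulosa-high and 333 of the 900 theca-high probe sets. The widest gap of all (5.42) belonged to such a probe set: its granulosa signals were 0.6 to 18.1 and its theca signals 1443 to 3176, a difference of -6.44 ± 0.22. On the granulosa side the widest gap (2.62) was that of another, with 2138 to 6515 in granulosa and 70.1 to 334 in theca (4.33 ± 0.32).

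Probe sets of one gene did not always go together. Of 108 granulosa-high genes with several tested probe sets, 32 had no overlap on every one, and 10 had a probe set of the opposite sign. For 128 theca-high genes these numbers were 41 and 17. ANXA5, EED, ENSA and LDHA had probe sets with no overlap in both directions, and these genes were singled out after their values were seen. For ENSA the differences ran from -3.56 to 1.02. The annotation used is that of the array platform and can be old.

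Follicle size was a covariate of the model, and whether the layer difference changed with it was tested over all probe sets. The no-overlap rule favours probe sets with little spread within a layer, so size results among its members are descriptions. The test of a layer difference that changes with size called 0 of 17478 probe sets (0.0%) after adjustment in limma, with 1342 at an unadjusted p under 0.05. The count was 74 without the second array of large granulosa, 25 without the second array of small theca and 1 without the first or without the second array of medium granulosa. The median difference of the granulosa-high probe sets was 1.08, 0.89 and 0.85 in small, medium and large follicles. For the theca-high ones it was -1.42, -1.43 and -1.13. Large follicles had the smallest difference for 47.3% of granulosa-high and 55.3% of theca-high probe sets, close to the 45.6% and 52.8% among all called probe sets.

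A size effect within granulosa was called for 265 probe sets (1.52%) and within theca for 7 (0.0401%). Within granulosa 1 of the 880 granulosa-high and 7 of the 900 theca-high probe sets were called, and within theca 0 of either. Since the no-overlap rule favours little spread within a layer, nothing is read from these member counts. KRT18 was the granulosa-high gene: its granulosa signals were 5964 and 4945 in small, 1317.5 and 801 in medium and 1425 and 1019 in large follicles (adjusted p = 0.0138, limma). Theca KRT18 signals were 292.5 and 221 in small against 56.7 to 138 in larger follicles, without passing the test (adjusted p = 0.462). APOD and SERPING1, both theca-high, were lower in larger follicles within granulosa, changing by -2.05 and -1.91 from small to large (adjusted p = 0.0187 and 0.0214). MYH11, smooth muscle myosin, changed by -2.83 (adjusted p = 0.025), from 1097 and 712 in small to 168 and 71.8 in large granulosa. ALDH1A1 and OLFML3 were higher in large granulosa, by 2.45 and 1.72 (adjusted p = 0.0462 and 0.0373). These calls rest on few arrays: without the first array of large granulosa 0 probe sets were called within granulosa and without the second 493, and without the second array of small theca 258 were called within theca.

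**Figure D5:**
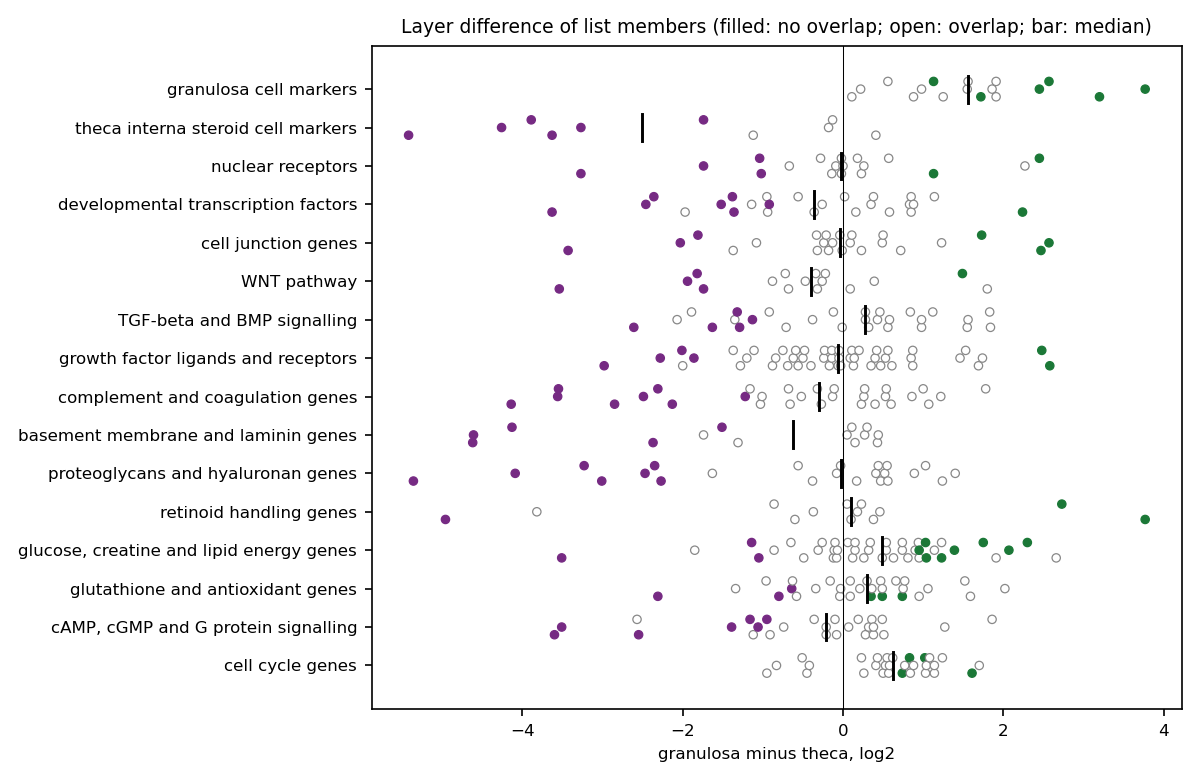
Granulosa minus theca in log2 for each tested member of 16 gene lists; filled points had no overlap between the layers (green granulosa higher, purple theca higher), open points overlapped, and the bar is the list median. Filled points of the complement, basement membrane, proteoglycan and G protein signalling lists lie on the theca side, while those of energy genes are mostly and those of cell cycle genes wholly on the granulosa side.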

How the data were processed

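The authors deposited linear signal intensities, already scaled to a common level: each array had a trimmed mean of 125.03 or 125.04. How each probe set was summarised, and with which software, is not given in the sources used here. All 12 columns were mapped by their identifiers. Of 24128 probe sets, 112 controls were left out. Probe sets were tested whose mean signal in at least 1 of the 6 groups exceeded the 40th percentile of all signals (22.5). Signals were turned into log2(signal + 16) without further scaling, since array medians spanned 0.383 in log2, under a limit of 0.5. limma 3.58.1 in R 4.3.3 fitted layer and size, without trend, with 8 residual and 7.52 prior degrees of freedom. Size effects and their interaction with layer were F tests in a model of 6 group means. A call is a Benjamini-Hochberg adjusted p under 0.05 over all tested probe sets. Precision is limited by the number of arrays. Key genes also had exact permutation tests within sizes (216 arrangements).

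Gene symbols came from the platform annotation: 13292 probe sets had 1 symbol, 86 several and 10638 none, and only the first were named. The brightest tested probe set stood for a gene. The named genes were the 20 with the widest gaps in each direction, members of 34 gene lists with no overlap (up to 6 in each direction) or called against their list, 13 key genes, ligand and receptor pairs with no overlap in both genes, families with no overlap in both directions, members with size effects, and those at the limit. Most but not all of the 196 genes so named are described. The members, lists and tests were chosen with earlier results of these data known. On simulated data the layer comparison called 43% of 100 probe sets changed by 1 in log2 and 93% of 100 changed by 2. It made 8 false calls. The simulated noise was normal, and no other probe sets were changed. Far more probe sets (4176) were called in the data, so these shares do not give the power of this comparison. A gene that did not pass may still differ. Alternatives covered the offset, quantile normalization, the filter, the trend, the model, a replicate block, the probe set of a gene and leaving out arrays. Sequences were not used here. Figures were drawn with matplotlib 3.10.9.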

Additional observations from a re-analysis of the deposited data

How the results depend on the processing

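The layer comparison called 4176 probe sets, and 2930 (without the second array of medium theca) to 4321 when 1 array was left out. It called 4051 after quantile normalization, which left 744 granulosa-high and 1030 theca-high probe sets with no overlap. Leaving out 1 array gave 1848 to 2405 probe sets with no overlap, and leaving out the first arrays of small theca and of large granulosa together, an alternative added after seeing the data, gave 2973, since fewer arrays have to be separated. Size effects were less stable. Within granulosa 4 probe sets were called with log2(signal + 1), 56 with log2(signal + 64), 127 without a filter, 0 without the 2 arrays together and 0 to 493 when 1 array was left out. Within theca the counts were 0 with either offset, 1 without the 2 arrays and 1 to 258. The layer difference that changes with size gave 0 to 74 when 1 array was left out. The cause of these changes was not tested.

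Whether same-numbered samples of the layers were paired is not stated. Their deviations correlated by -0.36, -0.221 and 0.137 over the 3 sizes. With 2 arrays for each layer and size, these values cannot tell whether they shared animals. With the replicate block 3451 probe sets were called for the layer, 218 for size within granulosa, 7 within theca and 0 for the interaction. Of 186 named genes that were called, 170 kept the call in each fit without 1 array. Leaving out 1 array gave -0.23 to 0.02 for CYP11A1 and -0.49 to 0.07 for STAR. The sign turned for CYP11A1 without the first array of large granulosa (0.02) and without the 2 arrays together (0.14), and for STAR without the first array of small theca (0.05), the first array of large theca (0.07) and the 2 together (0.29). On the next brightest probe set it turned for ITGB3 (0.32), LDHA (-0.97), MGP (0.22) and NR3C1 (0.40). No named gene turned its sign under the other offsets, filters, the trend, quantile normalization or the block.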
